A study of Mus musculus with 8 samples.

Results

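Activins are dimeric growth factors of the transforming growth factor beta (TGF-beta) superfamily, and 9 genes of their system were followed here by symbol in the deposited count table: the subunit genes Inhba and Inhbb, the follistatin genes Fst, Fstl3 and Fstl1, the type II receptor genes Acvr2a and Acvr2b and the type I receptor genes Acvr1 and Acvr1b. All 9 were among the 55359 gene identifiers of the table, and all 9 passed the filter on low counts that left 15164 genes for testing. The cells were MLO-Y4, a line derived from mouse long bone that is used as a model of osteocytes, which lie buried in bone matrix. The study compared 4 libraries of non-irradiated cells with 4 libraries of cells exposed for 1 min to a pulsed Er:YAG laser at 2940 nm and a fluence of 6 J/cm2. Both groups were labelled wild type, were grown in serum-containing medium on collagen-coated dishes that had been seeded 72 h before, and gave poly(A) RNA 6 h after the exposure. Medium was taken off before irradiation, and the labels do not say whether this was also done to the non-irradiated dishes, nor whether the 4 libraries of a group came from separate cultures. The p-values therefore measure the spread between these libraries, which may be only technical.

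A dimer of 2 subunits encoded by Inhba is activin A, and a dimer of those encoded by Inhbb is activin B. Activins bind the type II receptors ACVR2A and ACVR2B, which recruit and phosphorylate the type I receptor ACVR1B, and this in turn activates the transcription factors SMAD2 and SMAD3. ACVR1 is a type I receptor that mainly carries bone morphogenetic protein (BMP) signals through SMAD1 and SMAD5. Follistatin and follistatin-like 3, encoded by Fst and Fstl3, wrap around activin and keep it from its receptors. Follistatin-like 1, encoded by Fstl1, shares a follistatin domain but is a separate kind of secreted glycoprotein. In bone, activin A is held in the matrix and acts on both bone-forming and bone-resorbing cells.

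Library totals ran from 43786209 to 51734166 counts. The names C5 to C8 stand for non-irradiated libraries and L5 to L8 for irradiated ones, with the numbers of the table. Levels are in CPM, counts set relative to the TMM-scaled library total, and are given by library or as mean ± SD (n = 4 in each group). A positive log2 fold change means higher in irradiated cells. Of the osteocyte markers, Pdpn and Gja1 were abundant, while Sost, Mepe and Fgf23 had 0 counts in all 8 libraries. The 7 osteocyte markers together summed to between 739 and 765 CPM in non-irradiated and between 927 and 961 CPM in irradiated libraries. That rise was carried by Pdpn (486.8 ± 12.6 to 608.4 ± 23.2 CPM, edgeR adjusted p = 4.88e-07) and Gja1 (250.1 ± 5.18 to 318.4 ± 9.91 CPM, adjusted p = 1.84e-07). Phex did not pass the test (adjusted p = 0.559), and Dmp1, with 82 counts in all, was not tested. The part of these markers in the results was not tested. Macrophage or osteoclast markers summed to 77.9 to 90.3 and 81.9 to 90.7 CPM, with Ptprc, Adgre1 and Acp5 at 0 throughout. Within that sum Csf1r rose from 14.2 ± 1.17 to 26.2 ± 1.2 CPM (edgeR adjusted p = 1.06e-07) and Ctsk fell from 65.7 ± 3.96 to 57.1 ± 3.69 CPM (adjusted p = 0.0188), and the part of these genes in the results was not tested. Endothelial (up to 0.617 CPM), adipocyte (up to 0.712), chondrocyte (up to 3.35), epithelial (up to 0.0861) and muscle markers (up to 4.73) were low in both groups. Libraries C6 and L6 lay nearer to the other group than their fellows. Among 186 genes called higher by at least 0.5 on the log2 scale, C6 was the highest non-irradiated library in 51.1% (14.0% to 19.4% for each other) and L6 the lowest irradiated one in 53.8% (12.4% to 17.7% for each other). The main results are therefore also given without both libraries. For a gene that rose, with C6 highest and L6 lowest of their groups, this widens the step by construction.

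Irradiated cells had more Inhba and more Fst messenger RNA, by 1.94-fold and 1.73-fold, while the other 7 genes did not pass the test. So 2 of the 9 were higher and 0 lower by the quasi-likelihood test of edgeR, at a Benjamini-Hochberg adjusted p under 0.05 over all 15164 tested genes. By the same test 8.22% of all tested genes were higher and 6.75% lower, and 2 of so few genes is a description beside that background. When library totals alone set the scale, 1050 of all genes were higher and 1345 lower, against 1247 and 1023 with TMM scaling. The 9 genes had a median log2 fold change of 0.044, beside -0.007 over all tested genes. In these bulk RNA samples a change in the share of cells that express a gene and a change in the RNA per cell cannot be told apart.

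The genes differed in level by several orders of magnitude. Set per kb of exon, so that genes of different length can be compared, non-irradiated cells had most Fstl1 (303 ± 4.83 CPM per kb), followed by Inhba (89.6 ± 14.8), Fstl3 (35.3 ± 1.29) and Acvr1 (14.3 ± 0.319). Below these came Acvr2a (3.04 ± 0.253), Acvr1b (1.98 ± 0.218), Inhbb (1.19 ± 0.172), Fst (1.09 ± 0.197) and Acvr2b (0.0834 ± 0.0704). Only Inhbb and Fst, neighbours in this order, overlapped between their libraries (0.984 to 1.37 and 0.967 to 1.39 CPM per kb). In irradiated cells the order was the same down to Acvr2a, and Fst (1.89 ± 0.148) then stood beside Acvr1b (1.67 ± 0.0741), the ranges of the pair overlapping, and above Inhbb (1.16 ± 0.204). The place of Fst depends on the length used. With its longest transcript (2921 bp) in place of all its exons (4589 bp) its non-irradiated level was 1.72 ± 0.31 CPM per kb, above every library of Inhbb and overlapping Acvr1b.

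**Figure D1:**
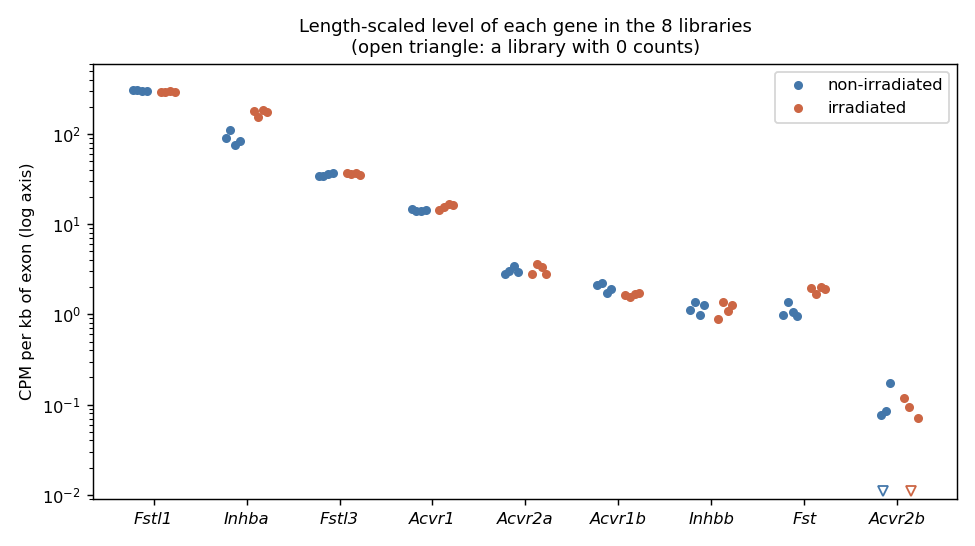
Level of each of the 9 genes in each library, as CPM per kb of exon on a log axis, with non-irradiated libraries in blue and irradiated ones in orange; an open triangle marks a library with 0 counts. Fstl1 lies highest near 300 CPM per kb and Acvr2b lowest, and only Inhba and Fst show a clear step between the groups.

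Of the ligand genes, Inhba (ENSMUSG00000041324.15) was the abundant subunit. It stood at 576 CPM in C5, 702 in C6, 483 in C7 and 528 in C8, and at 1159 CPM in L5, 986 in L6, 1169 in L7 and 1126 in L8. All irradiated libraries lay above all non-irradiated ones, with C6 the highest of its group and L6 the lowest of its own. The rise from 572.2 ± 94.5 to 1110.0 ± 84.8 CPM gave a log2 fold change of 0.96 (SE 0.129, 95% interval 0.64 to 1.27, edgeR adjusted p = 0.00405). Leaving out 1 library at a time gave edgeR adjusted p-values from 0.000704 to 0.0181. Without both libraries numbered 6 the log2 fold change was 1.13 (edgeR adjusted p = 3.65e-05). As C6 and L6 lay nearest the other group, leaving them out had to widen the step and adds no support. Inhba passed the test in 17 of 18 alternatives, with adjusted p-values of up to 0.0571.

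Inhbb (ENSMUSG00000037035.6), the other activin subunit, was far lower and showed no such step. Its levels were 4.80 CPM in C5, 5.84 in C6, 4.19 in C7 and 5.47 in C8 against 3.83 in L5, 5.82 in L6, 4.69 in L7 and 5.38 in L8. The groups overlapped throughout (5.08 ± 0.732 and 4.93 ± 0.869 CPM, log2 fold change -0.042, 95% interval -0.39 to 0.31, edgeR adjusted p = 0.911). Per kb of exon, Inhba exceeded Inhbb 75.2 ± 7.47-fold in non-irradiated and 155 ± 37.9-fold in irradiated cells, with no overlap between the groups (64.3 to 80.0 against 113 to 202). As Inhbb showed no step, the rise of this ratio largely restates that of Inhba.

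For these paralogous subunits, the 250 bases before the start of each gene are shown, from RefSeq on GRCm38.p6. They read 5′ to 3′ on the strand of the gene. Whether these bases bear on the difference in level or in response was not tested. Inhba lies on the plus strand (chr13:16011601-16011850) and Inhbb on the minus strand (chr1:119422249-119422498). Capitals mark the TATA box letters TATAAA.
Inhba: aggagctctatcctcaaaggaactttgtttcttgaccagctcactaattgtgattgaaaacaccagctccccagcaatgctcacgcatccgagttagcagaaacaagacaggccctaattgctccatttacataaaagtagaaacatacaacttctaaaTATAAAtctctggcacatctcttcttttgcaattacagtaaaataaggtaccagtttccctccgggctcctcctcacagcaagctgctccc
Inhbb: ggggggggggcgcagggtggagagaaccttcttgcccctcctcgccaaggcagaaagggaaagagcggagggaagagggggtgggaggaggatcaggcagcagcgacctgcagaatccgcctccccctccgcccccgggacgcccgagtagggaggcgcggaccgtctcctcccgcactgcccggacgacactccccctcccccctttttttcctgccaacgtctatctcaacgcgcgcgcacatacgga

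The window of Inhba held 43.2% G and C, and that of Inhbb 68.0%, beside a median of 52.4% over 32851 RefSeq windows of the same length. TATAAA, searched on both strands, occurred 1 time in the Inhba window, starting at position -91 from the RefSeq start, and not in that of Inhbb; 12.4% of all windows held it. Fst, which rose along with Inhba, had no window in the set used and was not searched. Of the 8 members with a window, Fstl3 also held TATAAA (position -29). In Acvr1, Acvr2b and Fstl1 the bases just before the start lie within an annotated transcript. The AP-1 letters TGANTCA (in 6.75% of all windows), the cyclic AMP response element TGACGTCA (1.55%) and the SMAD palindrome GTCTAGAC (0.167%) occurred in none of the 8. The SMAD-type letters CAGACA (17.1%) occurred in that of Fstl3 only, at position -162. These counts describe letters in these windows and say nothing of sites farther away.

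Among the antagonists, Fst (ENSMUSG00000021765.10) was the gene that rose. Its levels were 4.48 CPM in C5, 6.36 in C6, 4.82 in C7 and 4.44 in C8, and 8.91 CPM in L5, 7.70 in L6, 9.26 in L7 and 8.855 in L8. The groups did not overlap, and again C6 was the highest and L6 the lowest of its group. The change from 5.02 ± 0.906 to 8.68 ± 0.678 CPM was a log2 fold change of 0.79 (SE 0.14, 95% interval 0.50 to 1.08, edgeR adjusted p = 0.000523). Without both libraries numbered 6 it was 0.98 (edgeR adjusted p = 5.81e-05), a widening fixed by leaving out C6 and L6. The change in Fst rests on 958 counts over the non-irradiated and 1665 over the irradiated libraries. As a fragment may add several counts, the fragments behind it may be fewer.

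Fstl3 (ENSMUSG00000020325.11), the more abundant activin-binding antagonist, stood at 84.5, 82.9, 88.2 and 89.7 CPM in C5 to C8 and at 89.7, 88.4, 91.4 and 86.8 CPM in L5 to L8. The groups overlapped, with a log2 fold change of 0.045 (95% interval -0.042 to 0.13, edgeR adjusted p = 0.546), so that a change of the size seen for Fst lies outside its interval. Fstl1 (ENSMUSG00000022816.12) was at 1500, 1516, 1468 and 1470 CPM in C5 to C8 and at 1424, 1439, 1462 and 1418 CPM in L5 to L8. Each irradiated library lay below each non-irradiated one, but the step was small (log2 fold change -0.052, 95% interval -0.10 to -0.001) and did not pass the test (edgeR adjusted p = 0.172). With library totals alone as the scale it did (log2 fold change -0.075, adjusted p = 0.0385). Of the 9 genes 3 had groups that did not overlap, against 18.5% of all tested genes: 2 were higher (Inhba and Fst, against 9.76%) and 1 lower (Fstl1, against 8.78%).

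**Figure D2:**
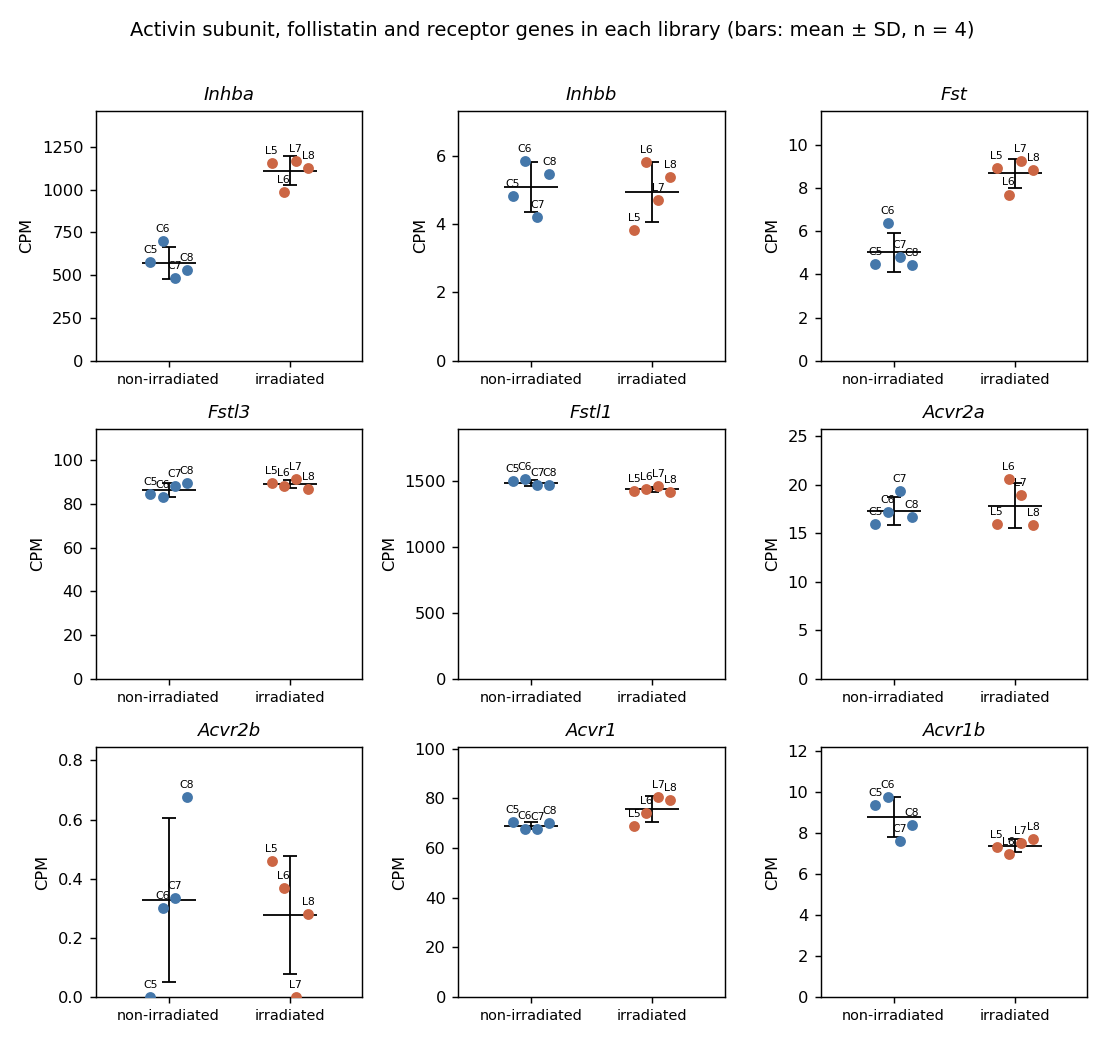
CPM of the 9 genes in each library, with the axis of each panel starting at 0; points are libraries, horizontal bars the means and error bars the SD of 4 libraries. Inhba and Fst separate the groups widely, Fstl1 separates them by a small step, and the other 6 genes overlap.

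The balance of ligand to antagonist messages can be read per library. Inhba over Fstl3, per kb of exon, was 2.61 in C5, 3.24 in C6, 2.1 in C7 and 2.25 in C8, and 4.94 in L5, 4.27 in L6, 4.90 in L7 and 4.96 in L8. Every irradiated library was above every non-irradiated one. Inhba over the sum of Fst and Fstl3 was 2.47 ± 0.476 in non-irradiated and 4.53 ± 0.303 in irradiated cells, a 1.83-fold higher mean. Inhba over Fst alone overlapped between the groups, at 72.0 to 92.4 (82.3 ± 8.69) in non-irradiated and 90.7 to 93.4 (91.8 ± 1.16) in irradiated libraries. Fstl3 over Fst, the balance between the antagonists, was lower in irradiated cells without overlap (33.1 ± 5.91 against 19.3 ± 1.49). The size of these ratios depends on the length used: with the longest transcripts Inhba over Fst was 52.4 ± 5.53 and 58.5 ± 0.739, still overlapping, and Inhba over the sum of Fst and Fstl3 was 1.96 ± 0.375 and 3.58 ± 0.237. As Fstl3 showed no step and far exceeded Fst, Inhba over Fstl3 and over the sum largely restate the step of Inhba. Fstl3 over Fst likewise largely restates that of Fst. The ratios are descriptions without a test, and they compare messages, not proteins.

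Acvr2a (ENSMUSG00000052155.6) was the more abundant of the activin type II receptor genes Acvr2a and Acvr2b. It was at 16.0, 17.2, 19.3 and 16.7 CPM in C5 to C8 and at 16.0, 20.6, 18.9 and 15.8 CPM in L5 to L8. The groups overlapped (log2 fold change 0.044, 95% interval -0.16 to 0.24, edgeR adjusted p = 0.832). Acvr2b (ENSMUSG00000061393.15) was near the limit of detection, with 0, 14, 16 and 34 counts in C5 to C8 and 22, 19, 0 and 14 counts in L5 to L8. A difference in Acvr2b was not detectable at this depth (log2 fold change -0.23, 95% interval -2.17 to 1.70, edgeR adjusted p = 0.909).

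Of the type I receptors, Acvr1 (ENSMUSG00000026836.16) was at 70.5, 67.8, 67.5 and 70.2 CPM in C5 to C8 and at 68.9, 74.0, 80.5 and 79.4 CPM in L5 to L8. L5 lay within the non-irradiated range and the other 3 irradiated libraries above it (log2 fold change 0.13, 95% interval 0.028 to 0.24, edgeR adjusted p = 0.0852). Without L5 the gene passed the test (log2 fold change 0.18, edgeR adjusted p = 0.0255). That was the only 1 of 18 alternatives in which Acvr1 passed, and the highest adjusted p was 0.241. Acvr1b (ENSMUSG00000000532.12), the main activin type I receptor gene, was at 9.35, 9.74, 7.60 and 8.37 CPM in C5 to C8 and at 7.30, 6.94, 7.503 and 7.71 CPM in L5 to L8. Its groups overlapped only through C7 and L8 (log2 fold change -0.25, 95% interval -0.50 to -0.006, edgeR adjusted p = 0.171). Per kb of exon, Acvr1 over Acvr1b was 7.26 ± 0.781 in non-irradiated and 9.41 ± 0.541 in irradiated cells, with no overlap (6.37 to 8.12 against 8.64 to 9.82). Neither gene passed the test by itself. This ratio was not planned, and it sets a gene with a positive log2 fold change over one with a negative one. A wider step than in either gene was thus built in, and the ratio adds no support. It is a description without a test. Of single tested genes 18.5% had groups without overlap, a share that does not apply to such a ratio. Acvr1b over Acvr1c, a related type I receptor gene, overlapped between the groups (3.89 ± 0.859 in non-irradiated and 2.61 ± 0.377 in irradiated cells).

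**Figure D3:**
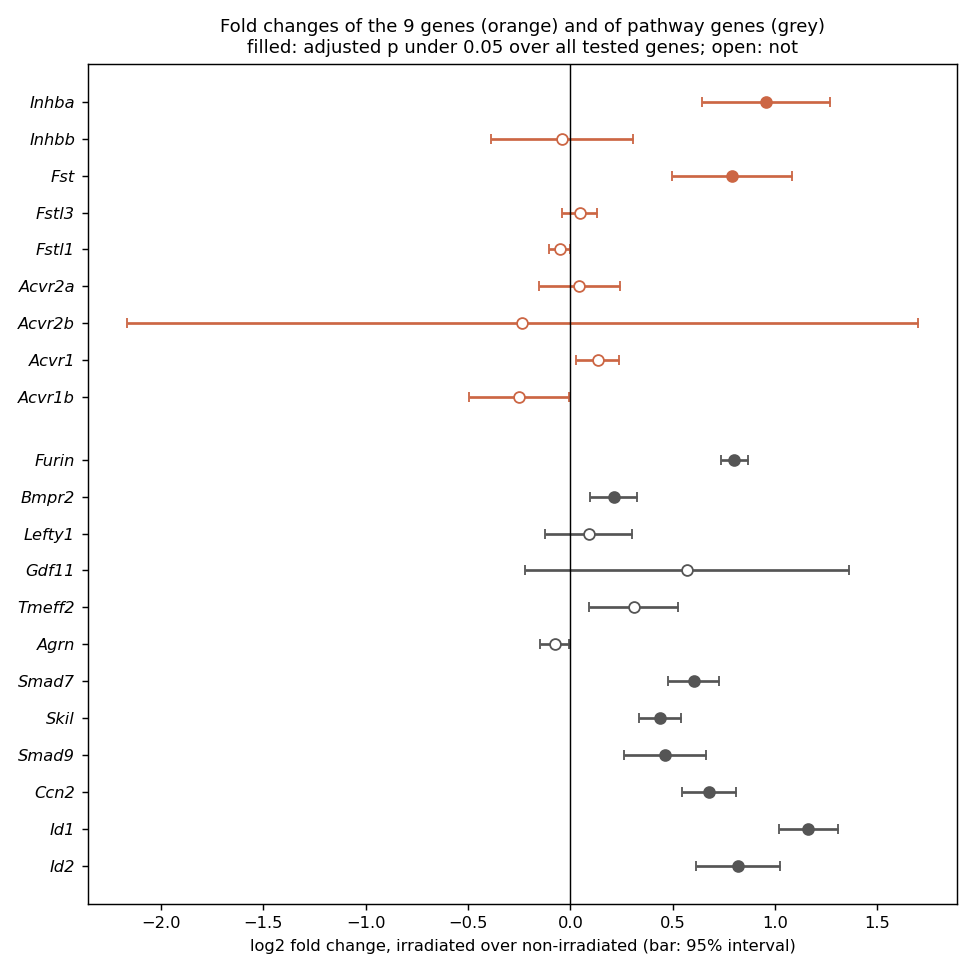
Log2 fold changes of the 9 genes (orange) and of some of the pathway genes named in the text (grey), with 95% intervals. Filled points had an adjusted p under 0.05 over all tested genes. Not drawn are, among others, Nedd4l, which fell, and Smad2, Smad3 and Smad4, which did not pass the test. Inhba and Fst lie well above 0, the interval of Acvr2b spans from -2.17 to 1.70, and Furin has one of the narrowest intervals.

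Activin precursors are cut by furin-type proteases before they can signal, and Furin rose along with Inhba. The gene went from 704.6 ± 30.5 CPM without the laser to 1229 ± 35 CPM after it, with no overlap (log2 fold change 0.80, SE 0.032, edgeR adjusted p = 6.3e-12). Of 4 protease genes listed (Furin, Pcsk5, Pcsk6 and Pcsk7) 2 were tested, and 1, Furin, rose, beside 8.22% of all tested genes. Pcsk7 gave a log2 fold change of 0.094 (adjusted p = 0.308), Pcsk5 had 0 counts and Pcsk6 had 4 in all.

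A list of 10 further ligand or ligand-related genes of the activin and Nodal branch, without the BMP genes, was also read. Of these, Inhbc, Mstn (myostatin), Nodal and Lefty2 had 0 counts in every library, so that a level of up to 0.0685 CPM is possible (3 counts in the library with the lowest total, counting error only). The bound takes a fragment as 1 count and is higher if a fragment adds several. Inha, whose product turns an activin subunit into an inhibin, had 65 counts over all 8 libraries. Only Gdf11 and Lefty1 were tested and neither passed: Gdf11 was at 0.773 ± 0.345 and 1.15 ± 0.266 CPM (edgeR adjusted p = 0.364), and Lefty1, an antagonist of Nodal, at 12.6 ± 1.1 and 13.4 ± 1.58 CPM (adjusted p = 0.646). Per kb of exon Lefty1 reached 7.17 ± 0.626 CPM in non-irradiated cells, above Acvr2a, Acvr1b, Inhbb and Fst. The Nodal co-receptor genes Tdgf1 and Cfc1 were at 0 counts.

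Of 10 other receptor and co-receptor genes 6 were tested, 1 rose and 0 fell, beside the same 8.22% and 6.75% over all tested genes. Bmpr2, the BMP type II receptor gene, was the one that rose (94.3 ± 7.95 to 109.3 ± 5.32 CPM, log2 fold change 0.21, edgeR adjusted p = 0.0119), although its groups overlapped. Acvr1c, a type I receptor related to Acvr1b, was at 4.89 ± 0.915 and 6.00 ± 0.672 CPM (adjusted p = 0.24). Tgfbr3, betaglycan, the co-receptor that holds inhibin, had a log2 fold change of -0.002 (95% interval -0.084 to 0.08, adjusted p = 0.983). Of 14 genes with follistatin-type domains other than the members, 8 were tested and 0 passed, their median log2 fold change being 0.088. The lowest p-values were those of Tmeff2, a transmembrane protein with follistatin domains (15.6 ± 2.66 to 19.3 ± 1.22 CPM, log2 fold change 0.31, adjusted p = 0.0509), and Agrn, agrin (log2 fold change -0.077, adjusted p = 0.152). Tmeff2 passed under 9 of 18 alternatives, DESeq2 and limma-voom among them.

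Of 17 genes of intracellular SMAD signalling 16 were tested, 5 rose, 1 fell and 10 did not pass, beside 8.22% higher and 6.75% lower over all tested genes. Smad7, an inhibitor that blocks type I receptors, reached 78.4 ± 7.23 CPM in irradiated cells from 51.6 ± 2.19 CPM in the others, a 1.52-fold rise (edgeR adjusted p = 7.14e-07). Skil, a corepressor of SMAD2 and SMAD3, rose 1.35-fold (adjusted p = 3.66e-06), and Smad9, a BMP-type SMAD, rose 1.38-fold (adjusted p = 0.00196). Smad6, an inhibitor mainly of BMP signals (adjusted p = 0.00297), and Zfyve9, whose product presents SMAD2 and SMAD3 to receptors (0.0401), also rose. The activin-type transducers themselves gave log2 fold changes of -0.024 for Smad2 (adjusted p = 0.837), 0.008 for Smad3 (0.925) and 0.074 for Smad4 (0.275). Nedd4l, a ubiquitin ligase gene, fell (log2 fold change -0.30, adjusted p = 0.00143). Smad6, Zfyve9 and Nedd4l are named for completeness and were picked once their values were known. With DESeq2, without L6 or without both libraries numbered 6, 8 of the listed genes rose. With library totals alone or upper-quartile scaling 4 did, and leaving out 1 library at a time gave 4 to 8.

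Genes known as targets of SMAD2 and SMAD3, the activin and TGF-beta branch, were higher in 9 of 14 tested members and lower in 0, beside 8.22% higher over all tested genes. Their median log2 fold change was 0.21 against -0.007 over all tested genes. Ccn2, a matrix-associated growth regulator, stood at 212.4 ± 9.5 CPM and after irradiation at 339.7 ± 31.1 CPM, a 1.6-fold rise (edgeR adjusted p = 1.19e-05). Ltbp2, Ldlrad4, Tagln, Snai2 and Tgif1 did not pass the test. Targets of SMAD1 and SMAD5, the BMP branch, were higher in 8 of 11 tested members and lower in 0, with a median of 0.53. With library totals alone or without both libraries numbered 6 the number higher was 7. Leaving out 1 library at a time gave 7 to 8. Id1 and Id2, whose products block basic helix-loop-helix transcription factors, rose 2.24-fold and 1.76-fold (adjusted p = 1.35e-09 and 1.27e-05). Smad7 stands in both target lists, and 4 of the 5 signalling genes that rose (Smad6, Smad7, Smad9 and Skil) are counted again among the targets that rose, so that the 3 lists hold 17 distinct genes that rose. Both target lists were drawn up with earlier results of these data known, so their counts are not independent evidence of a direction.

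The pattern of Inhba over the 8 libraries was compared with that of 10589 other tested genes (mean level of 5 CPM or more), by the root mean square difference of log2 CPM after each gene was centred on its own mean. Among the nearest were Rsbn1 (difference 0.077), a nuclear protein gene, Thbs1 (0.081), which encodes the matrix glycoprotein thrombospondin, Rcan1 (0.092), an inhibitor of the phosphatase calcineurin, and the chemokine gene Cxcl3 (0.094). The median difference from Inhba over all genes compared was 0.519. These 4 genes rose between 1.72-fold and 2.01-fold, and Thbs1, at 1210 ± 114 and 2220 ± 168 CPM, was the most abundant of them. The step between the groups enters the difference, so a rise near that of Inhba was built into the choice. The ranks below therefore largely restate the fold changes. Fst was the gene ranked 15 in nearness to Inhba (0.127), Furin ranked 19 (0.145), Id1 ranked 30 (0.175) and Ccn2 ranked 43 (0.191). Inhbb ranked 7576 and Acvr1b 9336. The nearest genes to Fst were Thbs1 (0.093) and Abcb1a (0.101), a drug efflux pump gene. Cxcl3 and Abcb1a have close relatives that can share reads with them.

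**Figure D4:**
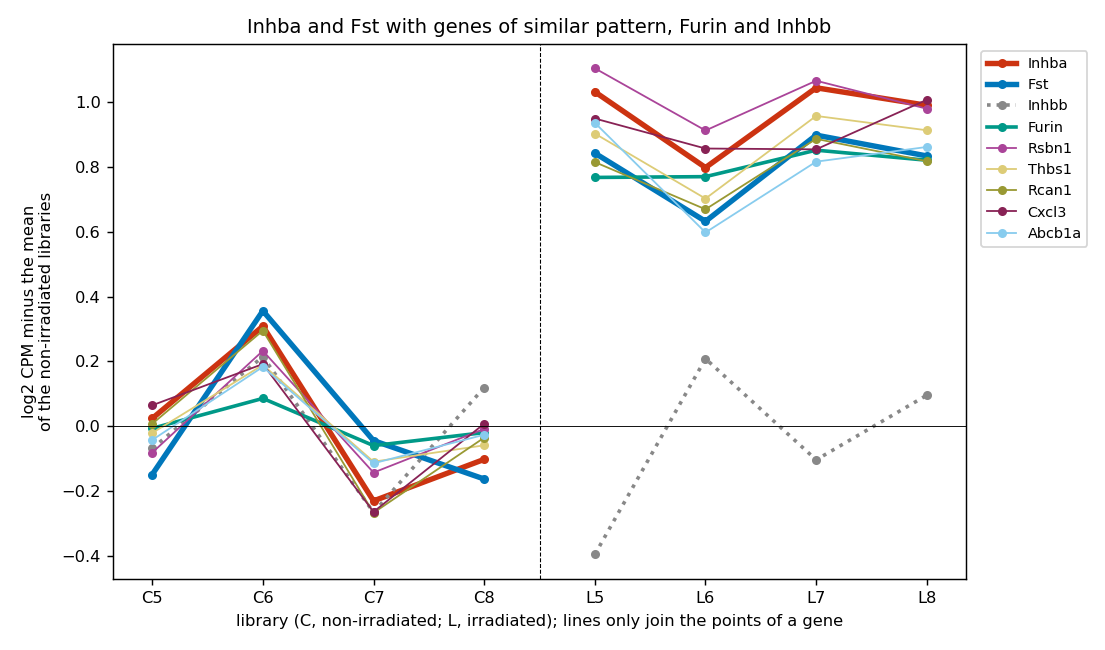
Log2 CPM minus the mean of the non-irradiated libraries, for Inhba, Fst, genes of similar pattern, Furin and Inhbb in each library; lines only join the points of 1 gene. The irradiated libraries of all but Inhbb lie above the non-irradiated ones, with C6 highest in its group for each of these genes and L6 lowest in its group for most, while Inhbb (dotted) overlaps.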

How the data were processed

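The file the authors deposited holds whole-number estimated counts per gene, not normalized. Per the submitters' processing notes the build was GRCm39 and the tools were HISAT2 2.2.1, Trimmomatic 0.39, StringTie 2.1.7, FastQC 0.11.9 and DESeq2 1.32.0, listed in no order. Strand setting and annotation release were not given in the sources used here, so overlapping and antisense genes are uncertain. The variance of genes averaging 5 to 100 counts was 4.21 (non-irradiated) and 4.32 times their mean (irradiated), so a fragment may add several counts. Pairs of libraries within a group differed by 9.22 to 16.4 times the Poisson expectation.

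Columns are numbered 5 to 8 and sample titles 1 to 4, so a column was tied to its group only. Symbols came from GENCODE M21 (52083 of 55359 identifiers, 99.64% of counts), as did exon and transcript lengths. That release describes GRCm38, and no coordinate of it is given.

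Genes were kept by filterByExpr (minimum count 10), scaled by TMM and tested with glmQLFit (robust) and glmQLFTest in edgeR 4.0.16 (R 4.3.3), with group as the only term and Benjamini-Hochberg adjustment over 15164 genes. The standard error is the log2 fold change divided by the square root of F. The script was tested on simulated data with known answers. Alternatives were RLE, upper-quartile and total scaling, DESeq2 1.42.0, limma-voom (limma 3.58.1), other filters, a replicate block, counts divided by 4 and leaving out each library. Leaving out both libraries numbered 6 was chosen after seeing the data.

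The members and lists were chosen with earlier results of these data known. Named were the 9 members, up to 3 called genes with the largest changes of each list (or the 2 with the lowest p), and the genes nearest in pattern to Inhba (5) and Fst (2) by log2 CPM with a prior count of 2. A gene that this rule selects is not reported here. Other genes are named only to account for a list.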

Additional observations from a re-analysis of the deposited data

How the results depend on the processing

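Inhba and Fst were higher in all 18 alternatives tried, with log2 fold changes from 0.88 to 1.13 and from 0.73 to 0.98. Fst passed the test in each, and Inhba in all but the fit with the number in the column name as a replicate block (log2 fold change 0.97, adjusted p = 0.0571), where 1 of the 9 genes was higher; Rcan1 lost its call there too (0.0587). Over all tested genes, libraries with the same number did not deviate together (correlations of -0.046 to 0.001, against -0.022 to 0.033 for other pairs). The numbers were therefore not taken as pairs. A correlation over all tested genes cannot show whether the number matters among the genes that changed, which was not tested. The block gave 1006 genes higher and 751 lower.

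With library totals alone 1 of the 9 was lower, Fstl1 (-0.075). With DESeq2, RLE scaling, counts divided by 4, either other filter, limma-voom or the block, 1 gene with follistatin domains was higher. Of the SMAD signalling genes, 8 were higher with DESeq2 or without both libraries numbered 6. With library totals alone or upper-quartile scaling 4 were. Leaving out 1 library at a time gave 976 to 1501 genes higher and 696 to 1172 lower, 2 to 3 of the 9 higher, 0 to 1 gene with follistatin domains and 4 to 8 SMAD signalling genes. It gave log2 fold changes of 0.106 to 0.177 for Acvr1, and changed the sign of Inhbb (-0.128 to 0.062), Acvr2a (-0.03 to 0.101) and Acvr2b (-0.639 to 0.394). Acvr2a was at -0.031 without both libraries numbered 6. The cause of these shifts was not tested. With the longest transcripts Inhba over the sum of Fst and Fstl3 was 1.96 and 3.58, a length chosen for these ratios after seeing the data. Counts limit Acvr2b most.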
